A study of Homo sapiens with 12 samples.

Results

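The genes described here are 10 that run the first step of the cell cycle: the D-type cyclins CCND1, CCND2 and CCND3, the E-type cyclin CCNE1, the kinases CDK4 and CDK6, and the CDK inhibitors CDKN1A (p21), CDKN1B (p27), CDKN2A (p16INK4a and p14ARF) and CDKN2B (p15INK4b). They were taken by symbol, matched from the gene identifier, out of a table of 58721 genes, and all 10 were found. Read counts per gene were available for 12 RNA-seq libraries of polyadenylated RNA from EW8 and TC71, which are human cell lines grown from Ewing sarcoma, a tumour of bone and soft tissue driven by the fusion protein EWS-FLI1. All 4 groups carried the same lentiviral system, in which the Tet-On 3G activator is made from the EF1-alpha promoter and, once doxycycline is present, switches on c-Jun and c-Fos from a TRE3G promoter. c-Jun and c-Fos together form AP-1, a transcription factor.

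Each line had 3 libraries of cells under vehicle (DMSO, genotype label WT) and 3 under doxycycline (2000 ng/ml, genotype label AP1_overexpression), all for 72 h. Cells that took up the vectors were kept as drug-selected populations. Doxycycline-treated cells without the transgenes were not analysed here, so doxycycline itself and c-Jun with c-Fos cannot be told apart. Among the alterations the study lists for the lines are a KIT mutation in EW8 and a deletion of the CDKN2A gene in TC71. The 12 libraries summed to between 42860665 and 60853649 counts. Nothing states that replicates were separate cultures, so the p-values measure the spread between these libraries, which may be technical.

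As background, D-type cyclins bind CDK4 or CDK6 in early G1, cyclin E binds CDK2 later, and both kinds of complex phosphorylate the retinoblastoma protein RB1, which then lets go of E2F factors and allows the genes of DNA replication to be transcribed. INK4 proteins such as p16INK4a and p15INK4b block CDK4 and CDK6, while CIP/KIP proteins such as p21 and p27 bind cyclin-CDK complexes, above all those with CDK2. Ewing sarcoma cells are known for strong cyclin D1 expression and for recurrent loss of the chromosome 9 stretch that holds CDKN2A and CDKN2B.

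Induction was seen in all 6 doxycycline libraries. JUN rose 22-fold in EW8 and 36.5-fold in TC71, and FOS rose 29.3-fold and 135-fold. Of 8 Ewing sarcoma marker genes, CD99 stood at 558 to 1243 CPM and PAX7 at 43.8 to 105.8 CPM as group means, and CCK was below 0.4 CPM in 3 of the 4 groups. CPM is a read count scaled to library size, here with trimmed-mean (TMM) factors. Among 7 markers of other cell types, PTPRC (CD45) was at 65.9 CPM in EW8 with vehicle and at 0.0237 CPM in TC71 with vehicle, PECAM1 rose in both lines, and CD3E and ALB were at 0 in 11 of the 12 libraries each. The part of these markers in the results was not tested. TC71 vehicle replicate 1 stood apart from its group. Its chi-square per gene was 65 and 62.5 against the other 2 replicates, where all other pairs of replicates in the 4 groups lay between 5.38 and 11.1. TC71 values are therefore also given from a fit without it, chosen for the lists and sums after seeing the data. Of 10 housekeeping genes, 6 rose and 1 fell in EW8, where 21.9% of all tested genes rose and 22% fell. In TC71, 3 rose and 1 fell, where 25.1% of all tested genes rose and 20.4% fell. The median log2 fold changes of the 10 housekeeping genes were 0.18 in EW8 and -0.03 in TC71.

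**Figure D1:**
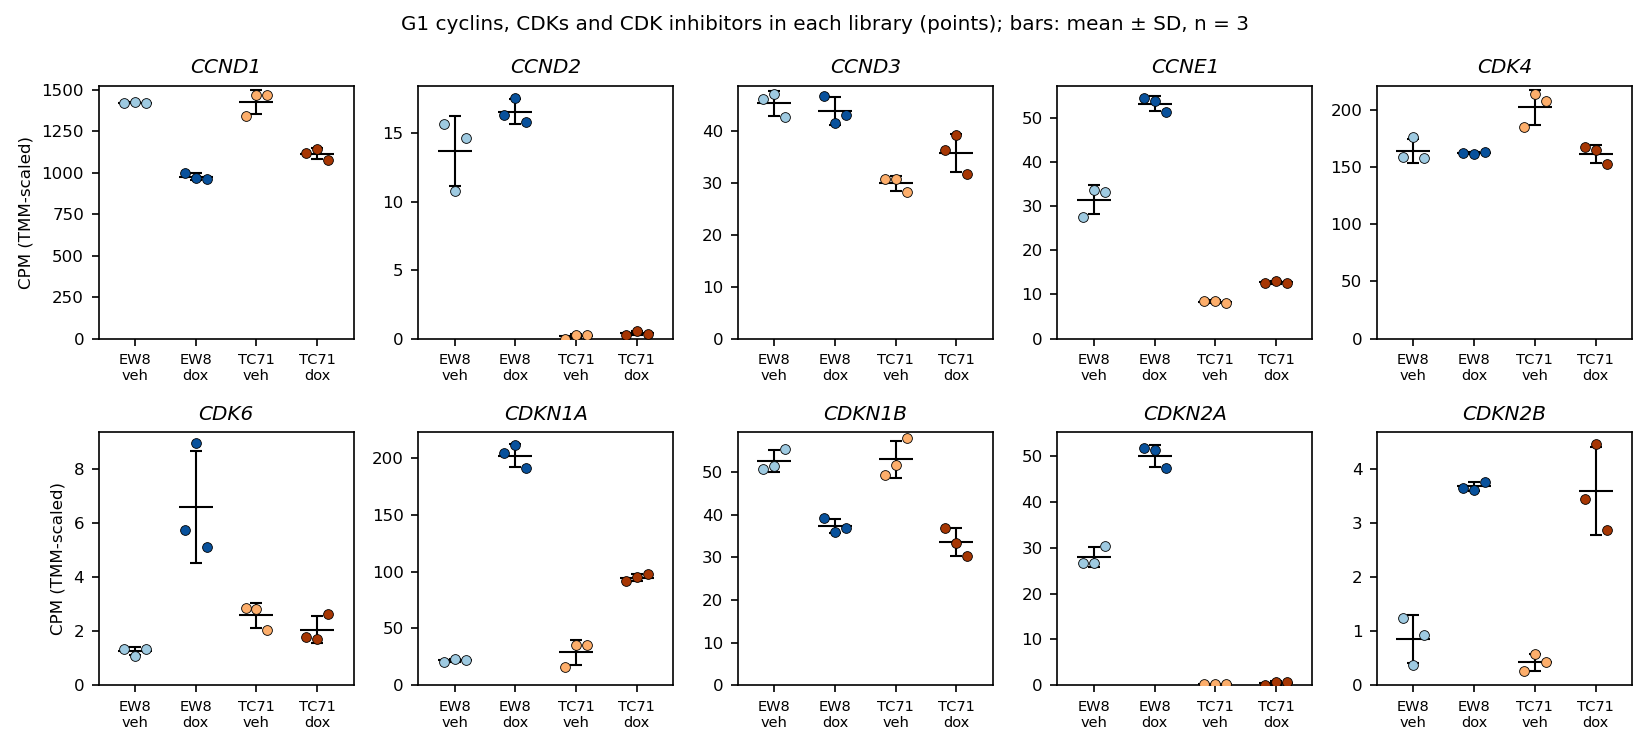
Level of each of the 10 genes in each of the 12 libraries, in TMM-scaled CPM on an axis that starts at 0 (points, with the mean ± SD of 3 libraries per group as bars; veh is vehicle, dox is doxycycline). CDKN1A sits at 191 to 211 CPM in the EW8 doxycycline libraries and at 91.3 to 97.5 CPM in those of TC71, above every vehicle library, while CCND2 and CDKN2A are close to 0 in all TC71 libraries.

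All 10 genes passed the filter on low counts. CCND2 and CDKN2A were low in TC71, which held at most 22 counts of CCND2 and 32 of CDKN2A in any library. Differences were tested with edgeR's quasi-likelihood test in 1 fit of 21013 genes, with Benjamini-Hochberg adjustment over all of them, and a gene is said to have risen or fallen only where the adjusted p was under 0.05. On doxycycline in EW8, 5 of the 10 rose (CCNE1, CDK6, CDKN1A, CDKN2A and CDKN2B), where 21.9% of all tested genes did, and 2 fell (CCND1 and CDKN1B), where 22% of all genes did. In TC71, 4 rose (CCND3, CCNE1, CDKN1A and CDKN2B) against 25.1% of all genes, and 3 fell (CCND1, CDK4 and CDKN1B) against 20.4%. With the added limit of an absolute log2 fold change over 1, 3 of the 10 were higher in EW8 (CDK6, CDKN1A and CDKN2B) against 11.4% of all genes, and 2 in TC71 (CDKN1A and CDKN2B) against 12.3%. None of the 10 fell past that limit by edgeR, where 3.38% of all genes did in EW8 and 3.67% in TC71. That count was also 0 in both lines at an unadjusted p under 0.05, by DESeq2 and by limma-voom. The median log2 fold change of the 10 was 0.52 in EW8 and 0.43 in TC71, against -0.03 and 0 over all tested genes. In bulk RNA, a change of level within cells and a change in the share of cells that hold a transcript cannot be told apart.

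**Figure D2:**
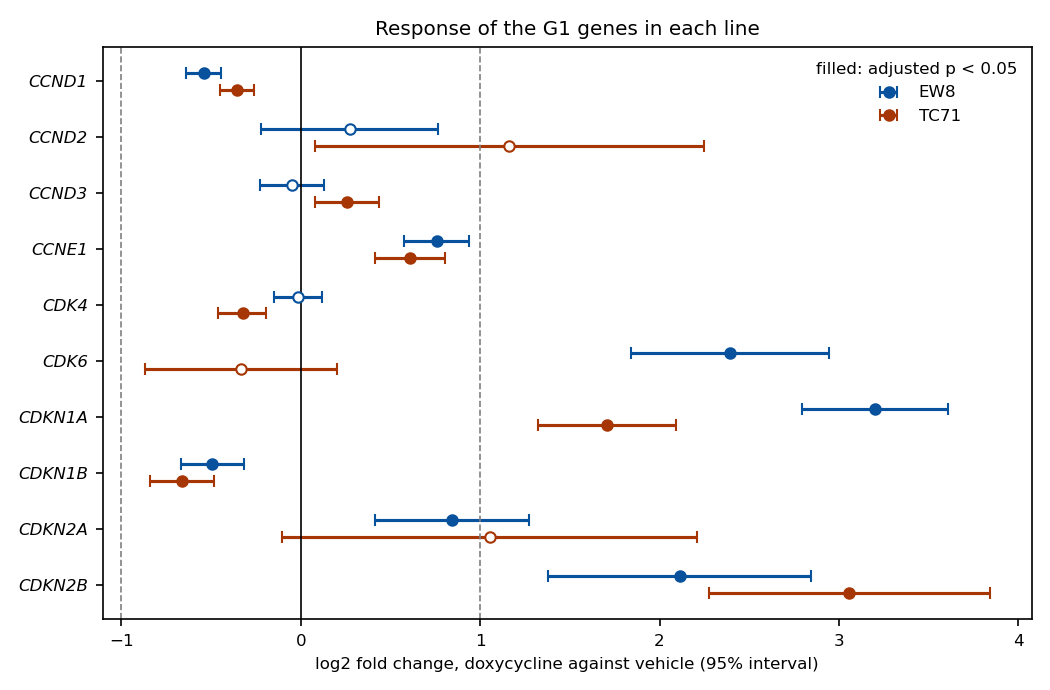
Log2 fold change of each gene, doxycycline against vehicle, in EW8 (blue) and TC71 (red), with 95% intervals worked out from the edgeR F statistic. Filled points passed an adjusted p of 0.05, and dashed lines mark a log2 fold change of 1 in either direction. CDKN1A and CDKN2B lie to the right of 1 in both lines, CDK6 lies at 2.39 in EW8 and at -0.33 in TC71, and CCND1 and CDKN1B lie to the left of 0 in both.

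CCND1, the cyclin D1 gene, was the most abundant of the 10 and fell in both lines. Its level in EW8 was 1417, 1423 and 1419 CPM with vehicle and 998, 966 and 962 CPM with doxycycline. In TC71 it was 1344, 1467 and 1465 CPM with vehicle and 1120, 1145 and 1077 CPM with doxycycline. All doxycycline libraries of a line lay below all of its vehicle libraries. The log2 fold change was -0.54 ± 0.046 (SE) in EW8 (edgeR adjusted p = 1.88e-08) and -0.36 ± 0.046 in TC71 (edgeR adjusted p = 3.66e-06), which is 1.46-fold and 1.28-fold lower. By mean CPM, CCND1 held rank 41 of the tested genes in EW8 with vehicle and rank 87 with doxycycline, and ranks 51 and 80 in TC71.

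The other D-type cyclins were far lower. CCND2 was at 15.7, 10.8 and 14.7 CPM in EW8 with vehicle and at 16.3, 17.6 and 15.8 CPM with doxycycline. In TC71 it was at 0, 0.226 and 0.291 CPM with vehicle and at 0.291, 0.526 and 0.364 CPM with doxycycline, between 0 and 22 counts in a library. The 2 EW8 groups did not overlap, yet the log2 fold change of 0.27 (95% interval -0.22 to 0.77) did not pass (edgeR adjusted p = 0.384), except in a fit of the EW8 libraries alone (0.32, edgeR adjusted p = 0.0247). In TC71 the log2 fold change of 1.16 (interval 0.08 to 2.25) did not pass either (edgeR adjusted p = 0.0762), and it did without TC71 vehicle replicate 3 (1.68, edgeR adjusted p = 0.0276).

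CCND3 showed no change past the threshold in EW8 and a small rise in TC71. Its TC71 level was 30.7, 30.7 and 28.3 CPM with vehicle and 36.4, 39.2 and 31.8 CPM with doxycycline, groups that lay close to each other without overlapping. The rise of 0.26 ± 0.085 on the log2 scale (edgeR adjusted p = 0.0187) was lost in 7 of 21 alternative fits, among them scaling by library size alone (0.16, edgeR adjusted p = 0.125) and leaving out TC71 doxycycline replicate 2 (0.14, edgeR adjusted p = 0.245). In EW8 the CCND3 log2 fold change was -0.05 (interval -0.23 to 0.13).

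Scaled by the exon length of each gene, CCND1 made up 96.8% ± 0.128 (SD, n = 3) of D-type cyclin transcripts in EW8 with vehicle and 95.3% ± 0.0966 with doxycycline. The same shares were 98.3% ± 0.134 and 97.4% ± 0.193 in TC71. The summed D-type cyclin level went from 304 ± 0.486 to 212 ± 4.43 CPM per kb in EW8 and from 300.3 ± 14.4 to 237 ± 7.71 CPM per kb in TC71. On this scale CCND1 therefore stayed above 95% of the D-type pool in every library of both lines. Without length scaling it made up 94% to 94.2% in the EW8 libraries with doxycycline.

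CCNE1, the cyclin E1 gene, rose in both lines, opposite to CCND1. It was at 27.7, 33.6 and 33.3 CPM in EW8 with vehicle and at 54.5, 54.0 and 51.4 CPM with doxycycline. In TC71 it was at 8.44, 8.62 and 8.04 CPM with vehicle and at 12.5, 13.1 and 12.7 CPM with doxycycline. No vehicle library of either line reached a doxycycline library of that line, and all 6 TC71 libraries lay below all EW8 libraries. The log2 fold change was 0.76 ± 0.086 in EW8 (edgeR adjusted p = 8.78e-07) and 0.61 ± 0.093 in TC71 (edgeR adjusted p = 2.59e-05).

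CDK4 and CDK6, the partners of the D-type cyclins, differed between the lines. CDK6 in EW8 went from 1.35, 1.09 and 1.33 CPM with vehicle to 5.75, 8.97 and 5.12 CPM with doxycycline, which is 50 to 74 counts against 224 to 454. In TC71 it was at 2.86, 2.83 and 2.06 CPM with vehicle and at 1.79, 1.72 and 2.64 CPM with doxycycline, and the groups overlapped. CDK6 rose 5.25-fold in EW8 (log2 fold change 2.39 ± 0.262, edgeR adjusted p = 5.68e-07), and its log2 fold change in TC71 was -0.33 (interval -0.87 to 0.20, edgeR adjusted p = 0.316). EW8 doxycycline replicate 2 was the highest CDK6 value, and without it the EW8 log2 fold change was 2.11 (edgeR adjusted p = 7.07e-06).

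CDK4 moved in TC71 and not detectably in EW8. It was at 186, 215 and 208 CPM in TC71 with vehicle and at 168, 165 and 153 CPM with doxycycline, without overlap, and fell by 0.33 ± 0.063 on the log2 scale (edgeR adjusted p = 0.000329). EW8 held 159, 177 and 158 CPM with vehicle and 163, 162 and 164 CPM with doxycycline, overlapping groups with a log2 fold change of -0.02 (interval -0.15 to 0.12). Per kb of exon, CDK4 was at 51.4 ± 0.226 CPM and CDK6 at 0.539 ± 0.169 CPM in EW8 with doxycycline, the group with the highest CDK6 level. On this scale CDK4 thus made up at least 98.6% of the CDK4 and CDK6 sum in every library. Without length scaling its lowest share in EW8 with doxycycline was 94.8%. Of the CDK4 exon bases, 43.2% are shared with exons of TSPAN31 on the opposite strand. Strand was not used in counting and reads on both genes were left out, so the CDK4 level per kb is lower than it would be over unshared exon only (90.4 ± 0.398 CPM per kb in that group).

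CDKN1A, which codes for the CDK inhibitor p21, rose in both lines and more in EW8. It stood at 20.5, 23.2 and 22.2 CPM in EW8 with vehicle and at 204, 211 and 191 CPM with doxycycline. TC71 held 16.04, 35.2 and 35.5 CPM with vehicle and 91.3, 95.2 and 97.5 CPM with doxycycline. Every doxycycline library of both lines lay above every vehicle library of both. The rise was 9.2-fold in EW8 (log2 fold change 3.20 ± 0.192, edgeR adjusted p = 1.43e-10) and 3.27-fold in TC71 (1.71 ± 0.183, edgeR adjusted p = 3.42e-07). The low TC71 vehicle value of 16.04 CPM came from replicate 1, which stands apart. Without it the TC71 log2 fold change was 1.36 ± 0.067 (edgeR adjusted p = 6.03e-15). By mean CPM, CDKN1A went from rank 7531 to rank 968 among tested genes in EW8 and from 6526 to 2648 in TC71.

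CDKN1B, the p27 gene, fell in both lines. Its EW8 level was 50.9, 51.5 and 55.6 CPM with vehicle and 39.2, 36.1 and 37.0 CPM with doxycycline. Its TC71 level was 49.5, 51.8 and 58.0 CPM with vehicle and 36.9, 33.5 and 30.3 CPM with doxycycline. The vehicle groups of the 2 lines overlapped, as did their doxycycline groups, and no vehicle library overlapped a doxycycline library. The log2 fold change was -0.49 ± 0.083 in EW8 (edgeR adjusted p = 8.86e-05) and -0.66 ± 0.084 in TC71 (edgeR adjusted p = 2.91e-06), or 1.41-fold and 1.58-fold lower.

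CDKN2A, which codes for p16INK4a and p14ARF from shared exons that gene counts do not tell apart, was expressed in EW8 and nearly absent from TC71. In EW8 it was at 26.6, 26.8 and 30.5 CPM with vehicle and at 51.8, 51.3 and 47.4 CPM with doxycycline. The TC71 libraries held 11, 14 and 10 counts with vehicle and 0, 24 and 32 counts with doxycycline, at most 0.728 CPM. In EW8 it rose 1.79-fold (log2 fold change 0.84 ± 0.203, edgeR adjusted p = 0.00228), and the DESeq2 adjusted p for the same change was 0.359 with a log2 fold change of 0.85. Of 20 alternative fits, DESeq2 was the 1 in which the EW8 call was lost. In TC71 the log2 fold change was 1.05 (interval -0.11 to 2.21, edgeR adjusted p = 0.133). Without TC71 doxycycline replicate 1, the library with 0 counts, it was 1.57 (edgeR adjusted p = 7.87e-05). In that fit the TC71 libraries held 10 to 32 counts each. The study lists a deletion of CDKN2A in TC71, and where these few counts came from was not tested.

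CDKN2B, the p15INK4b gene, was low and rose in both lines to a similar level. It was at 1.24, 0.371 and 0.934 CPM in EW8 with vehicle and at 3.65, 3.62 and 3.77 CPM with doxycycline. TC71 held 0.267, 0.58 and 0.427 CPM with vehicle and 3.44, 4.47 and 2.87 CPM with doxycycline, where vehicle libraries had 14 to 36 counts and doxycycline libraries 126 to 187. The doxycycline groups of the 2 lines overlapped and both lay above all vehicle libraries. The rise was 4.32-fold in EW8 (log2 fold change 2.11 ± 0.349, edgeR adjusted p = 6.92e-05) and 8.34-fold in TC71 (3.06 ± 0.371, edgeR adjusted p = 1.75e-06).

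CDKN2A and CDKN2B lie next to each other in hg38, CDKN2A at chr9:21967753-21995301 and CDKN2B at chr9:22002903-22009363, both on the minus strand. CDKN2A shares 341 exon bases with the antisense RNA CDKN2B-AS1, and CDKN2B shares none with any gene. Of 9 neighbours within the surrounding stretch, 8 passed the filter, of which 4 rose in EW8 (MTAP, KLHL9, FOCAD and MIR31HG), against 21.9% of all genes, and 2 in TC71 (MTAP and KLHL9), a share no higher than the 25.1% of all genes. Without TC71 vehicle replicate 1, KLHL9 did not pass in TC71 (log2 fold change 0.25, edgeR adjusted p = 0.0593), and MTAP was at 1.16. DMRTA1 and HACD4 were under 0.25 CPM in each group mean and did not pass. In either line 0 fell by edgeR, also at an unadjusted p under 0.05, by DESeq2 and by limma-voom. Over all genes 22% fell in EW8 and 20.4% in TC71, and 8 genes are too few to set a 0 against those shares. MTAP, a purine salvage enzyme gene that lies just before CDKN2A, was at 17.7 ± 2.54 CPM in TC71 with vehicle and at 38.1 ± 1.27 CPM with doxycycline (log2 fold change 1.11 ± 0.09, edgeR adjusted p = 7.66e-09). In EW8 it went from 41.3 ± 2.05 to 59.3 ± 0.776 CPM (log2 fold change 0.52 ± 0.09, edgeR adjusted p = 6.64e-05). IFNE, MIR31HG and ELAVL2, which lie farther out, were at 0 counts in all 6 TC71 libraries, and CDKN2B-AS1 was between 0.2 and 0.61 CPM in all 4 group means. In EW8 those 3 genes were low too, at or under 1.05 CPM in each group mean. MTAP and CDKN2B, the coding genes next to CDKN2A on either side, had counts in every TC71 library.

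**Figure D3:**
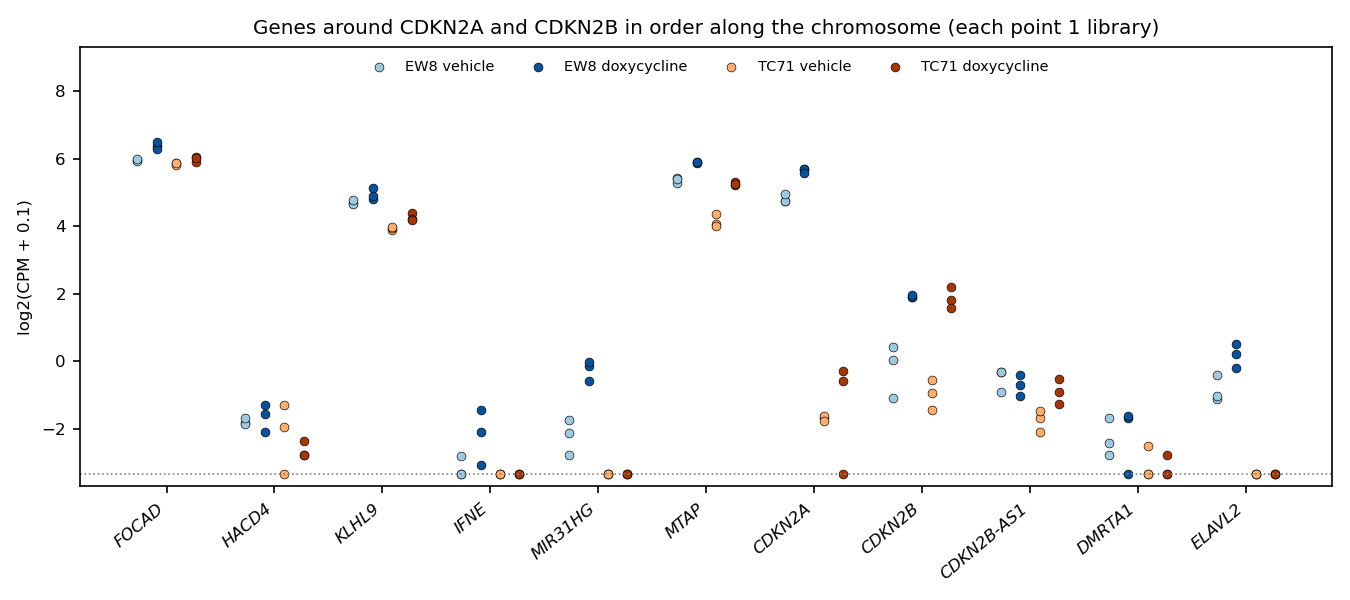
Level of CDKN2A, CDKN2B and their 9 listed neighbours in each library, as log2(CPM + 0.1), with genes in order along the chromosome (not to scale) and the dotted line marking 0 CPM. In TC71, MTAP and CDKN2B on either side of CDKN2A have counts in every library, CDKN2A itself has at most 32, and IFNE, MIR31HG and ELAVL2 lie on the dotted line.

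The make-up of the 4 inhibitor transcripts changed in both lines. Per kb of exon, CDKN1B was the most abundant of the 4 with vehicle, at 18.7 ± 0.922 CPM per kb in EW8 and 18.9 ± 1.57 in TC71. With doxycycline CDKN1A was, at 66.3 ± 3.43 CPM per kb in EW8 and 31.0 ± 1.03 in TC71. The CDKN1A share of the sum went from 22.1% ± 1.35 (SD, n = 3) to 72% ± 0.947 in EW8 and from 32.4% ± 8.28 to 70.6% ± 2.56 in TC71, where TC71 vehicle replicate 1 held 22.9% and the other 2 vehicle replicates 38.3% and 35.9%. The CDKN1B share went from 57.4% ± 0.532 to 14.5% ± 0.828 and from 67.1% ± 8.33 to 27.1% ± 2.6. CDKN2A made up 19.8% ± 0.67 and 12.6% ± 0.154 of the sum in EW8 and under 0.4% in every TC71 library, and CDKN2B at most 2.48% in any library. The sum itself went from 32.6 ± 1.57 to 92.1 ± 3.94 CPM per kb in EW8 and from 28.5 ± 4.94 to 44.0 ± 0.365 in TC71. In TC71 with vehicle it was 23.0 CPM per kb in replicate 1 and 30.2 and 32.4 in the other 2. Other CDK inhibitor genes, among them the INK4 gene CDKN2C, were left out of these sums and shares. CDKN2C went from 18.03 to 9.941 CPM per kb in EW8 and from 22.02 to 11.08 in TC71. With vehicle its group mean was above that of CDKN1B in TC71 and slightly below it in EW8. The shares and the rise of the sum therefore hold for the 4 genes only.

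**Figure D4:**
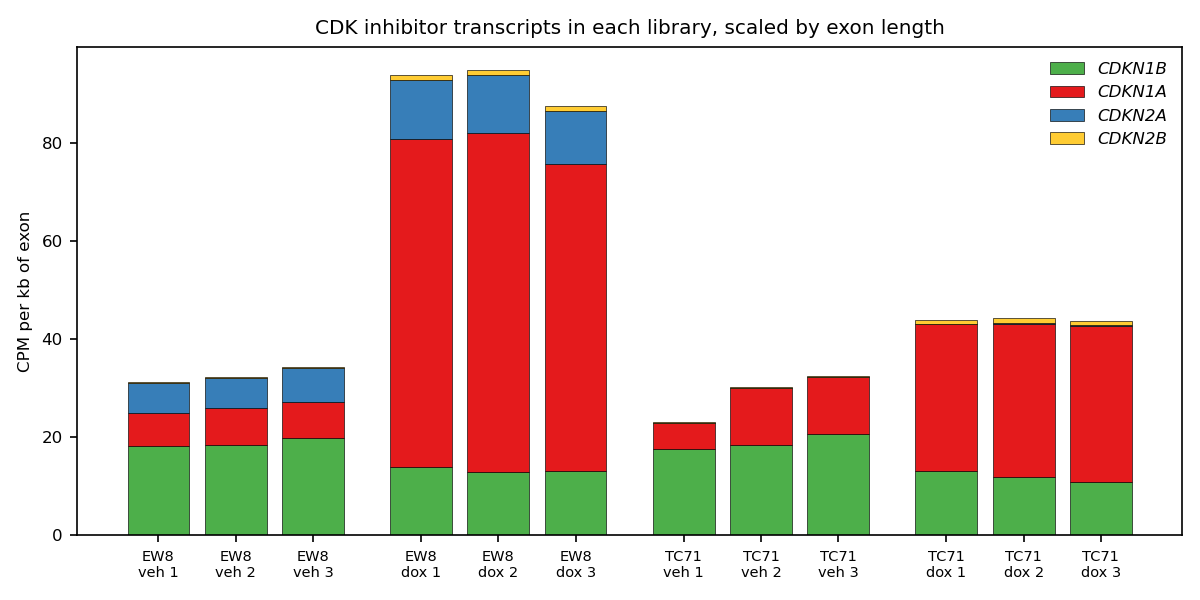
Transcripts of the CDK inhibitor genes CDKN1A, CDKN1B, CDKN2A and CDKN2B in each of the 12 libraries, as TMM-scaled CPM per kb of exon, stacked from an axis at 0. CDKN1B (green) is the largest block in all 6 vehicle libraries and CDKN1A (red) in all 6 doxycycline libraries, with a mean total of 92.1 CPM per kb in EW8 and 44.0 in TC71 under doxycycline.

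The interaction term of the same fit compares the response to doxycycline between the lines. It was lower in TC71 for 3 of the 10 genes, against 7.07% of all tested genes, and higher for 0, against 12.2%. Past the fold limit it was lower for 2 (CDK6 and CDKN1A, 2.87% of all genes) and higher for 0 (4.18%). The counts of 0 higher by edgeR were 2 and 0 at an unadjusted p under 0.05, 0 and 0 by DESeq2, and 1 and 0 by limma-voom. The CDK6 response differed by -2.73 ± 0.364 on the log2 scale (edgeR adjusted p = 2.53e-05). The CDKN1A response differed by -1.49 ± 0.255 (edgeR adjusted p = 0.000345), and by -1.89 ± 0.087 without TC71 vehicle replicate 1 (edgeR adjusted p = 1.32e-14). The CDK4 response differed by -0.31 ± 0.089 (edgeR adjusted p = 0.0208), which did not pass without EW8 vehicle replicate 1 (edgeR adjusted p = 0.0582) or without TC71 vehicle replicate 2 (edgeR adjusted p = 0.0562). The 5 comparisons described here reuse the same 12 libraries.

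For the other 7 genes the difference of responses did not pass, which does not show that they responded alike. For CCND1 it was 0.19 (95% interval 0.05 to 0.32, edgeR adjusted p = 0.0525), and it passed under limma-voom (limma adjusted p = 0.0162) and in 2 of the fits that leave out a library, while without TC71 vehicle replicate 1 it was 0.04 (edgeR adjusted p = 0.696). For CCND3 it was 0.31 (interval 0.06 to 0.56), for CCNE1 -0.15 (interval -0.42 to 0.12) and for CDKN1B -0.17 (interval -0.42 to 0.08). For CDKN1B it passed without TC71 vehicle replicate 1 (-0.33, edgeR adjusted p = 0.0326). CCND2, CDKN2A and CDKN2B had intervals of -0.30 to 2.08, -0.99 to 1.41 and -0.11 to 2.00, and for CDKN2B it passed without EW8 vehicle replicate 2 (1.30, edgeR adjusted p = 0.0449). The induced genes themselves also differed, with a JUN response higher in TC71 by 0.73 ± 0.153 and a FOS response higher by 2.21 ± 0.089 on the log2 scale. FOS started lower in TC71, at 11.7 CPM with vehicle against 36.8 CPM in EW8. With doxycycline it was at 1580 CPM in TC71 and 1078 CPM in EW8, a log2 difference of 0.55. The part of JUN and FOS in the differences above was not tested.

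Under vehicle, TC71 was lower than EW8 for 5 of the 10 genes, where it was for 33.5% of all tested genes, and higher for 2, against 28.2%. Past the fold limit 3 were lower (18.9% of all genes) and 1 was higher (11.6%). The lower ones were CDKN2A by 131-fold, CCND2 by 77.6-fold, CCNE1 by 3.77-fold, CDKN2B by 1.97-fold and CCND3 by 1.52-fold. The higher ones were CDK6 by 2.05-fold and CDK4 by 1.23-fold. CCND1 (log2 difference 0.01, interval -0.09 to 0.10) and CDKN1B (0.01, interval -0.16 to 0.19) did not pass, but CCND1 was higher in TC71 by 0.10 without TC71 vehicle replicate 1 (edgeR adjusted p = 0.0295). CDKN1A did not pass with all libraries (0.40, edgeR adjusted p = 0.0714) and was higher in TC71 without TC71 vehicle replicate 1 (0.74, edgeR adjusted p = 5.34e-10). The CDKN2B difference (edgeR adjusted p = 0.0349) was lost in 8 of 21 alternative fits, among them the one without that library (-0.69, edgeR adjusted p = 0.128).

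Under doxycycline, TC71 was lower for 6 of the 10 (32.3% of all tested genes) and higher for 1 (30.2%). Past the fold limit 5 were lower (18.4% of all genes) and 0 higher (12.6%), a 0 that edgeR at an unadjusted p under 0.05, DESeq2 and limma-voom also gave. CDKN2A (114-fold), CCND2 (41.9-fold), CCNE1 (4.18-fold), CDK6 (3.22-fold), CDKN1A (2.14-fold) and CCND3 (1.23-fold) were lower in TC71, and CCND1 was 1.14-fold higher. The order for CDK6 was thus EW8 with doxycycline, then TC71 with vehicle and TC71 with doxycycline, which overlapped, then EW8 with vehicle. For CDKN2B the 2 doxycycline groups overlapped at the top and the 2 vehicle groups at the bottom, with a TC71 to EW8 log2 difference of -0.03 under doxycycline (interval -0.71 to 0.64). The CCND1 difference did not pass without TC71 doxycycline replicate 1 (edgeR adjusted p = 0.0765) or replicate 2 (edgeR adjusted p = 0.117). CDKN1B did not pass under doxycycline (log2 difference -0.16, edgeR adjusted p = 0.114), and was lower in TC71 in 6 of 21 alternative fits, with a lowest adjusted p of 0.0144 without TC71 vehicle replicate 1.

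Without TC71 vehicle replicate 1, 3 of the 10 genes rose in TC71 on doxycycline (23.3% of all genes) and 3 fell (24.1%), the lost gene being CCND3 (0.21, edgeR adjusted p = 0.0541). The log2 fold change was then -0.46 for CCND1, -0.45 for CDK4, -0.78 for CDKN1B, 0.55 for CCNE1 and 2.75 for CDKN2B. The interaction was lower for 4 genes, CDKN1B being the added one, where it was lower for 14.1% of all genes and higher for 10.4%. Over all genes, lower responses in TC71 thus outnumbered higher ones without that library, and the reverse held with it. Under vehicle, 4 of the 10 were higher in TC71 (29.9% of all genes) and 4 lower (32.2%).

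Of 10 other cyclin and CDK genes of G1 and S phase, 6 fell and 1 rose in each line, where 22% of all genes fell and 21.9% rose in EW8 and 20.4% fell and 25.1% rose in TC71. CDK2, the partner of cyclin E, went from 101 ± 1.93 to 68.9 ± 2.69 CPM in EW8 (a log2 change of -0.55 ± 0.06) and from 95.4 ± 1.53 to 60.5 ± 2.34 CPM in TC71 (-0.66 ± 0.06). CCNE2, the other E-type cyclin gene, fell by 0.63 and 0.46 on the log2 scale, opposite to CCNE1. CCNA1, CCNA2, CCNH and CDC25A, the last a phosphatase that activates CDK2, fell in both lines too. CDK7, the kinase that activates other CDKs, was the member that rose, by 0.71 ± 0.11 in EW8 and 0.47 ± 0.11 in TC71. CDK3, CCNC and MNAT1 did not pass in either line, and without TC71 vehicle replicate 1 CCNC (-0.17) and MNAT1 (-0.29) fell in TC71. The list median was -0.42 in EW8 and -0.35 in TC71, against -0.03 and 0 over all genes.

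Among 4 other CDK inhibitor genes 2 fell in each line, where 22% of all genes fell in EW8 and 20.4% in TC71. By edgeR 0 rose, where 21.9% and 25.1% of all genes did, and 4 genes are too few to set a 0 against those shares. That count was also 0 at an unadjusted p under 0.05, by DESeq2 and by limma-voom. CDKN2C, the p18INK4c gene, went from 59.8 ± 2.75 to 33.0 ± 3.08 CPM in EW8 (a log2 change of -0.86 ± 0.09, edgeR adjusted p = 5.57e-07) and from 73.1 ± 8.47 to 36.8 ± 3.5 CPM in TC71 (-0.99 ± 0.09, edgeR adjusted p = 6.86e-08). CDKN2D, the p19INK4d gene, fell by 0.49 in EW8, and CDKN3, a phosphatase of CDK2, fell by 0.34 in TC71. CDKN1C, the p57 gene, was under 1.4 CPM in every group mean and did not pass by edgeR (adjusted p = 0.11 in EW8 and 0.363 in TC71), but it fell in EW8 by limma-voom (limma adjusted p = 0.0349), which made 3 of 4. Within the INK4 family, CDKN2B thus rose in both lines while CDKN2C fell in both.

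The genes downstream of RB1 moved down. All 23 E2F target genes of S-phase entry fell in EW8 and all 23 in TC71, with a median log2 fold change of -0.57 and -0.91. In EW8 they ran from -0.89 (GINS2) to -0.21 (RRM2). There 0 fell past a log2 fold change of 1 by edgeR (0 unadjusted, by DESeq2 and by limma-voom as well), against 3.38% of all genes. In TC71, 8 did so, against 3.67% of all genes. The 8 were TYMS at -1.12, MCM2, MCM6, GINS2, TK1, MCM10, POLE2 and CDT1, and RRM1 changed least at -0.32. Over all genes 22% fell in EW8 and 20.4% in TC71. The response was lower in TC71 for 13 of the 23 by the interaction term, against 7.07% of all genes. Without TC71 vehicle replicate 1, all 23 fell in TC71, against 24.1% of all genes, with a median of -1.04. In that fit 12 of them fell past the limit, where 895 of 21013 genes did. The response was then lower for 19, against 14.1% of all genes. Of 16 mitotic proliferation markers, 16 fell in EW8 and 14 in TC71, with medians of -0.34 and -0.29. The interaction passed for 0 by edgeR and limma-voom, where by edgeR it was higher for 12.2% and lower for 7.07% of all genes. It passed for 1 by DESeq2, and for 1 in each direction at an unadjusted p under 0.05. Without TC71 vehicle replicate 1 it was higher for 1 and lower for 2, against 10.4% and 14.1% of all genes. The 16 markers ran from -0.65 (TOP2A) to -0.20 (UBE2C) in EW8 and from -0.74 (AURKB) to -0.10 (CDC20) in TC71. These lists were drawn up with earlier results of the same libraries known and are no independent evidence of direction.

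RB1 itself fell in EW8, from 60.7 ± 3.09 to 45.6 ± 3.59 CPM (log2 fold change -0.41 ± 0.07), and was at 79.2 ± 2.48 and 80.1 ± 1.86 CPM in TC71, a difference of responses of 0.43 (edgeR adjusted p = 0.00308). Of 13 pocket protein, E2F and DP genes, 8 fell in EW8 and 0 rose by edgeR (0 unadjusted, by DESeq2 and by limma-voom as well). Over all genes 22% fell and 21.9% rose in EW8. In TC71, 7 fell and 2 rose, against 20.4% and 25.1% of all genes. Without TC71 vehicle replicate 1, 9 fell and 1 rose, against 24.1% and 23.3% of all genes. E2F2, an activating E2F, was the lowest in both lines, at -0.83 and -1.41 on the log2 scale, and E2F8, a repressing E2F, also passed the fold limit in TC71 at -1.31. E2F4 was the highest in EW8 at 0.08 and did not pass. E2F7, another repressing E2F, was the highest in TC71, going from 51.4 ± 1.91 to 268 ± 5.25 CPM (log2 fold change 2.38 ± 0.07, edgeR adjusted p = 1.33e-15). In EW8 it was at 56.9 ± 4.87 and 54.7 ± 0.846 CPM.

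Among 13 genes of the turnover of cyclins and CDK inhibitors by ubiquitin, which are ligase genes apart from the deubiquitinase gene USP28, SKP2 fell most in both lines. SKP2, the subunit that recognises p27, went from 269 ± 5.11 to 105 ± 4.8 CPM in EW8 (a log2 change of -1.35 ± 0.05, edgeR adjusted p = 2.52e-13) and from 220.1 ± 5.93 to 74.9 ± 2.25 CPM in TC71 (-1.56 ± 0.05, edgeR adjusted p = 3.45e-14). It was the list's only member past the fold limit in either line. SKP2 and CDKN1B transcripts thus both fell in both lines. In all, 4 members fell and 2 rose in EW8, and 5 fell and 3 rose in TC71, where 22% and 21.9% of all genes did in EW8 and 20.4% and 25.1% in TC71. AMBRA1 was the highest in EW8 (0.29) and CUL1 in TC71 (0.32). Without TC71 vehicle replicate 1, 7 fell and 3 rose in TC71, against 24.1% and 23.3% of all genes, and SKP2 was at -1.64.

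**Figure D5:**
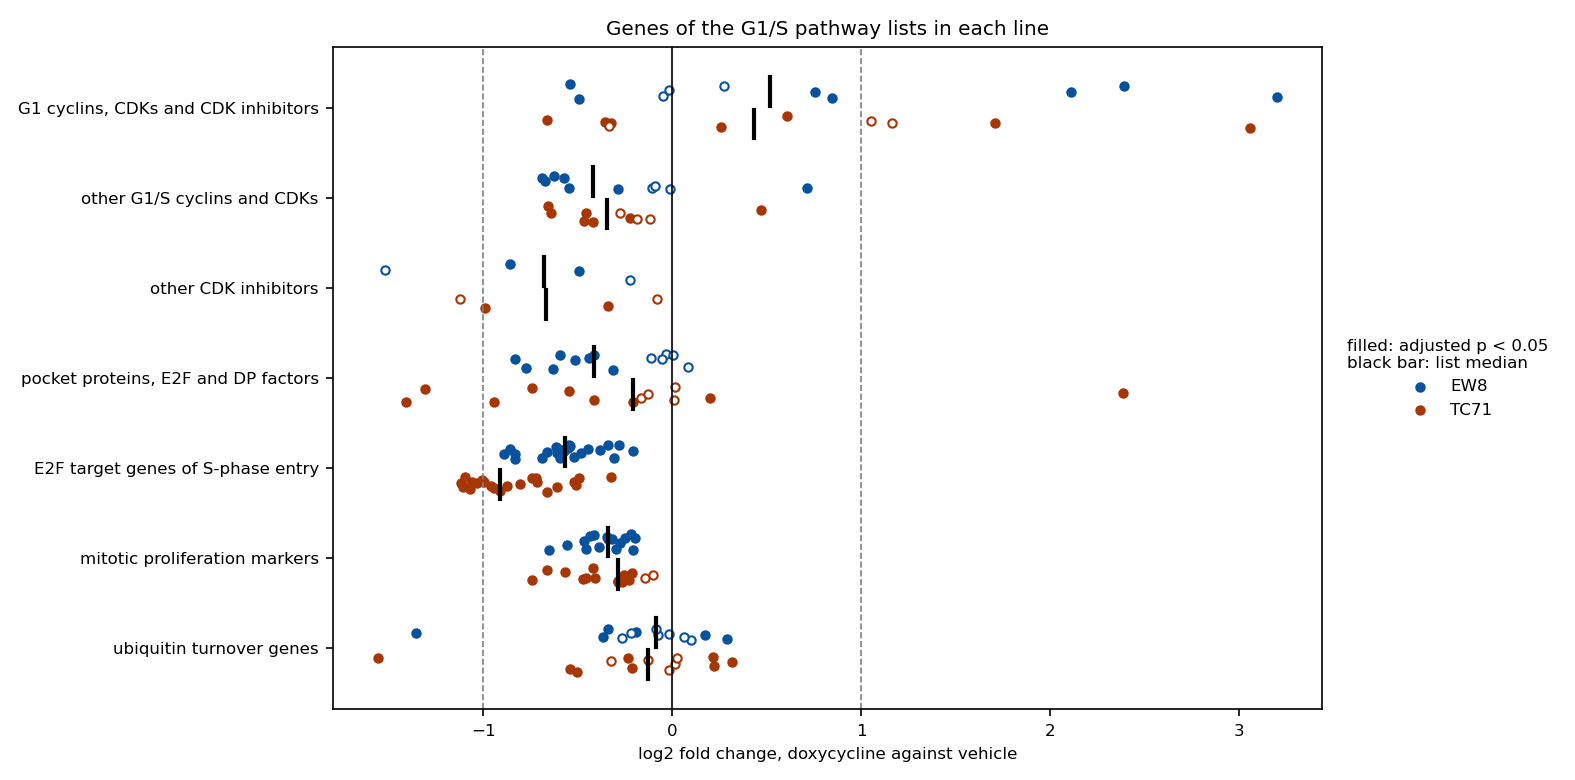
Log2 fold change of every tested gene of 7 lists, doxycycline against vehicle, with EW8 in blue and TC71 in red, filled where the adjusted p was under 0.05, and with each list's median as a black bar (points are spread vertically only to separate them). The E2F targets lie left of 0 in both lines with medians of -0.57 and -0.91, while the 10 G1 genes spread to both sides.

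Promoter windows of 250 bases before the start site, from RefSeq on GRCh38.p14, were matched to 8 of the 10 genes, 12 windows in all. One window each of the 3 genes that passed the fold limit in EW8 is shown so that its letters can be read beside their changes. CDK6 has 2 windows, and the one not shown holds no GGGCGG. Stretches are cut where an exon of the gene itself begins in the count table's annotation, are written 5′ to 3′ on the strand of the gene, and have GGGCGG or its reverse complement, the GC box bound by SP1, in capitals.
CDKN1A, chr6:36678464-36678657, plus strand: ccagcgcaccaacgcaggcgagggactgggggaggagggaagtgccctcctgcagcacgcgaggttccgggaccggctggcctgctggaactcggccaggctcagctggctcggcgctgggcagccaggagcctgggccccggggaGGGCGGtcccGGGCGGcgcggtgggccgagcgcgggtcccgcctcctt
CDKN2B, chr9:22009364-22009555, minus strand: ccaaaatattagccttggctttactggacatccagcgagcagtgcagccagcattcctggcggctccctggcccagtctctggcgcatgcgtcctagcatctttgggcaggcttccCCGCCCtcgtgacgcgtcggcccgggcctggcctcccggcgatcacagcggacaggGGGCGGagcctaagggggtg
CDK6, chr7:92836595-92836823, minus strand: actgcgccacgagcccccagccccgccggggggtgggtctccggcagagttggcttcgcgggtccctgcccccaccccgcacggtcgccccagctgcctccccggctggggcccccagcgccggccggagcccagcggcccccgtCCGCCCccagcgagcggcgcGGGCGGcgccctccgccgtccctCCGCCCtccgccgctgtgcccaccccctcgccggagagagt

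The 5 motifs below were searched on both strands of the whole windows, with overlapping matches kept. The AP-1 motif TGANTCA was in 0 of the 12 windows, against 6.57% of 35116 RefSeq windows of the same length, and the CRE motif TGACGTCA in 0, against 1.65%. TTTNNCGC, an E2F motif, was in 0 (5.92% of all windows), and the TATA box letters TATAAA in 0 (10.72%). GGGCGG was in 9 of the 12, against 42.64% of all windows. These are descriptions of the letters in the windows. Where letters are not found, that says nothing of binding elsewhere, and no binding was measured in these libraries.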

How the data were processed

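Per the file headers and the study's methods, strand-specific read pairs were aligned by the authors to hg38 (STAR), and featureCounts 2.0.1 counted reads on GENCODE release 29 exons. The deposited values were raw counts per gene. Each mate was counted singly, strand was not used, and reads on several places or genes were left out. The exon length in the deposited table scaled levels per kb. Symbols were matched for 58207 of the 58721 identifiers.

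Counts were tested with edgeR 4.0.16 in R 4.3.3: filterByExpr (21013 genes, 99.95% of counts), TMM scaling and 1 quasi-likelihood fit of 12 libraries in 4 groups, with Benjamini-Hochberg adjustment. Alternatives were other scalings and filters, DESeq2 1.42.0, limma-voom (limma 3.58.1), fits of the compared groups alone, a replicate block and each library left out. The scripts were tested on simulated data.

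The 10 genes and the lists were chosen with earlier results of these data known. Genes named were drawn from the 10 genes, members of the lists of other cyclins and CDKs, other CDK inhibitors and chromosome 9 neighbours, the extremes and those past the fold limit of each other list, genes overlapping the 10, and, for the 4 genes with the widest range of group means, the 3 most correlated genes. RB1 and USP28 were named after their values were seen. One list of genes is not reported here. Cell type markers are named as such. Counts have no molecular identifiers, so precision covers counting and library spread only.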

Additional observations from a re-analysis of the deposited data

Results flagged for a closer look

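For 3 of the 10 genes the response to doxycycline differed between the lines by the interaction term of the edgeR fit (adjusted p under 0.05). The TC71 response minus the EW8 response was -2.73 (log2) for CDK6, which rose by 2.39 in EW8 and stood at -0.33 in TC71. For CDKN1A it was -1.49, between rises of 3.20 and 1.71. For CDK4 it was -0.31, between -0.02 in EW8 and -0.33 in TC71, and this is the difference that leaving out either of 2 vehicle libraries moved past the threshold. The log2 fold changes of FOS and JUN were larger in TC71 than in EW8 by 2.21 and 0.73. The TC71 to EW8 log2 difference in FOS level was -1.65 with vehicle and 0.55 with doxycycline. The part of FOS and JUN in the differences of the 3 genes was not tested.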

How the results depend on the processing

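Over 50 log2 fold changes of the 10 genes (10 genes in 5 comparisons) and 1030 alternative values, 970 kept direction and side of the threshold, 20 lost the call, 20 gained one and 20 changed direction. The cause was not tested except where a filter removes genes. No pairing by replicate number was seen, as deviations of libraries with the same number correlated between -0.072 and 0.062. That cannot show whether the libraries were paired in the experiment. The fit with a replicate block changed only the call for CDKN2B between the lines under vehicle (log2 difference -0.98, edgeR adjusted p = 0.0542 with the block). Without a filter on low counts, 4 genes rather than 2 passed the fold limit upward in TC71, the added ones being CCND2 and CDKN2A. Of all genes in that fit 26.9% passed in TC71, in both directions and with no fold limit. Asking for 10 counts in every library removes CCND2 and CDKN2A. Then 3 rather than 5 genes were lower in TC71 under vehicle, 1 rather than 3 past the fold limit, and 3 rather than 5 past it under doxycycline. Of all genes in that fit 70.4% differed between the lines under vehicle and 69% under doxycycline, in both directions and with no fold limit. Under limma-voom 1 rather than 0 genes responded more in TC71, where 19.4% of all genes differed in response in both directions. Leaving out each library in turn gave 0 to 1 genes responding more in TC71, 0 to 1 of them past the fold limit. It gave 2 to 4 genes higher in TC71 under vehicle, 0 to 1 past the fold limit, and 0 to 1 higher under doxycycline. Of all genes in those fits 15.5% to 24.5% passed for the difference of responses, in both directions and with no fold limit. Between the lines the share was 57.8% to 62.1% under vehicle and 58% to 65.2% under doxycycline.

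These are the changes of direction. Scaling by library size alone gave -0.007 for CCND1 and -0.001 for CDKN1B between the lines under vehicle. In EW8, the filter of 10 counts gave 0.014 for CCND3 and 0.046 for CDK4, and the EW8 libraries alone gave 0.029 for CDK4. Limma-voom gave -0.30 for CDKN2A in TC71 and -1.14 for its difference of responses. Leaving out each library in turn gave -0.016 to 0.097 for CCND1 and -0.057 to 0.111 for CDKN1B between the lines under vehicle, -0.042 to 0.036 for CDK4 in EW8, -0.49 to 0.683 for the CDKN2A difference of responses and -0.282 to 0.045 for CDKN2B between the lines under doxycycline. Upper-quartile scaling shifted the median of all genes in TC71 by -0.10. The shares of each D-type cyclin and inhibitor without length scaling, or over unshared exon (chosen after seeing the data), are of the same order, with CDKN1A at 72.2% and 71.6% over unshared exon with doxycycline in EW8 and TC71. With 3 libraries per group and few counts, CCND2 and CDKN2A in TC71, CDK6 and CDKN2B are measured least precisely.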

Other observations

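For the 4 of the 10 genes with the widest range of group means, the genes with the most similar pattern were found by Pearson's r of log2 CPM over the 12 libraries, among 14986 genes with a mean of at least 1 CPM. The libraries fall into 4 groups, so r mostly follows the 4 group means, and it is given as a measure of likeness only. CDKN2A was most like KHDRBS3 (r = 0.986), PCLO and DLGAP1-AS5. CCND2 was most like PCYT1B (r = 0.9935), SYNGR1 and DNER. CDKN1A was most like TIMP1 (r = 0.9945), ELK3 and C11orf68. CDKN2B was most like the RNA LNCOG (r = 0.9813), AREG and AFF4.

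Exons of 7 of the 10 genes overlap exons of another gene, and reads there were left out of both. Beside CDK4 with TSPAN31, the share of exon bases was 13.8% for CCND2, 10.3% for CCND1 (with LTO1), 7.9% for CDKN2A (with CDKN2B-AS1) and 4.8% for CDKN1A (with DINOL), and under 1% for CCND3 and CDK6. The effect on their changes was not tested.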
